A study of Drosophila melanogaster with 48 samples.

Results

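RAL517 is an inbred line of Drosophila melanogaster from Raleigh, North Carolina. The RNA in its stage 2 embryos was compared with that in stage 2 embryos of 3 other inbred Raleigh lines, RAL307, RAL357 and RAL360. The comparison used 12 of the 48 embryos sequenced: 3 RAL517 embryos against 9 embryos of the other lines, 3 from each. All 12 were single whole embryos of unknown sex, laid by mothers of 3 to 10 days kept at 25 °C on density-controlled standard food, so the line was the only labelled difference between the groups. The rest of the series is made up of the late stage 5 embryos of these lines, all XY, and of both stages of 4 Zambia lines.

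At stage 2 the embryo has not yet switched on its own genome. Its RNA was made in the nurse cells of the mother's ovary and loaded into the egg, together with mitochondria and proteins, and it runs the first nuclear divisions, lays out the body axes and sets aside the germ line. A difference between lines at this stage can therefore come from what the mother deposited or from what was degraded by the time of collection. Libraries were poly-A enriched, and reads of all lines were mapped to the same reference genome. The part of these 2 steps in the differences was not tested. Each line stands for 1 genotype, and 3 embryos of a line measure the spread within that genotype.

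Values are in CPM, the reads of a gene scaled to a common library size after TMM normalization. A fold change on the log2 scale is the fitted RAL517 level minus the average of the 3 other line levels, so a line near 0 weighs heavily in it. The ratio of the RAL517 mean to the mean of the 3 line means is given beside it where the other lines differed much. Genes were called with edgeR's quasi-likelihood F-test at a Benjamini-Hochberg adjusted p under 0.01, and a called gene was set apart where all 3 RAL517 embryos lay above, or all below, the 9 others. The test measures RAL517 against the spread between embryos of a line, and with 1 line against 3 an exact permutation test over lines could not go below p = 0.25. The labels do not record the mother of each embryo, and the study's methods state that embryos were taken from many mothers, so that a shared mother was unlikely.

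Total counts were 29461497 to 29696792 in RAL517 embryos and 27667108 to 30092921 in the others, with 8916 to 9041 genes counted against 8784 to 9109. Ribosomal RNA took 1.5% to 1.91% of the counts in RAL517 and 1.8% to 2.55% in the others. Across genes, log2 CPM correlated at 0.991 to 0.995 among RAL517 embryos, at 0.959 to 0.966 between RAL517 and the other lines, and at 0.956 to 0.966 between the other lines. The 9 maternal germ line markers, among them osk, bcd and nos, summed to 10088 to 10292 CPM in RAL517 and 9545 to 11116 CPM in the others, and none of them was called. Early zygotic markers summed to 226 to 235 CPM in RAL517 and 209 to 303 CPM in the others, with 0 of 10 tested genes called. The eggshell genes of the follicle cells that surround the egg reached at most 0.135 CPM in sum in RAL517 and 0.342 CPM in the others, with 10 of 16 at 0 in all 12 embryos. Nearly all of the early zygotic sum came from slam, at 221 to 229 CPM in RAL517 and 206 to 300.3 CPM in the others. Without slam the other 9 summed to 2.87, 4.46 and 5.96 CPM in RAL517 and 1.84 to 3.31 CPM in the others, so RAL517 replicates 2 and 3 lay above every other embryo. In replicate 3 the zygotic genes sisA, nullo, bnk and sc were above all other embryos, at 1.47, 0.999, 0.999 and 0.4997 CPM, and in replicate 2 ftz and twi were highest, at 1.71 and 0.984 CPM. These levels were low beside the maternal markers, and their part in the results below was not tested beyond leaving out each embryo.

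Of 7566 genes tested, 666 were called, which is 8.8%. Higher in RAL517 were 291 genes (3.85% of those tested) and lower were 375 (4.96%). The RAL517 embryos did not overlap the others for 456 of the called genes (6.03% of those tested), 175 of them set apart as higher (2.31%) and 281 as lower (3.71%). Called or not, 9.56% of the tested genes had no overlap between RAL517 and the others, 3.83% with RAL517 above and 5.72% with RAL517 below. The same contrast made for each of the other lines in turn called 638 genes for RAL307, 712 for RAL357 and 656 for RAL360, so the 666 of RAL517 lay between the counts of the other lines. These contrasts share their embryos. Taken against single lines, RAL517 differed from RAL307 at 529 genes (6.99%), from RAL357 at 716 (9.46%) and from RAL360 at 648 (8.56%). The count rested on all 3 RAL517 embryos, since 301 genes were called without replicate 1, 316 without replicate 2 and 398 without replicate 3.

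Most of these differences were small. The median absolute log2 fold change of the set-apart genes was 0.75 for those higher and 0.45 for those lower, beside 0.11 over all genes tested. Differences of at least 2-fold were found at 68 of the 175 higher genes and 71 of the 281 lower genes, and differences of at least 8-fold at 25 and 26. The higher genes had a median level of 28.4 CPM and the lower genes 58.8 CPM, beside 56.1 CPM over all tested. Below 10 CPM, set-apart genes were 3.4% higher and 2.7% lower among those tested, whereas between 50 and 200 CPM they were 1.98% higher and 4.62% lower. The level was the mean over all Raleigh embryos, RAL517 included. A gene present only in RAL517 thus gets a lower level than one absent only there, so these medians and shares follow in part from that choice. Called genes made up 8.6% of those tested on X, 9.1% on 2L, 9.14% on 2R, 9.43% on 3L and 7.36% on 3R. Of the 444 set-apart genes on these arms and chromosome 4, 48 had a neighbour among the tested genes that was set apart in the same direction, always as a pair. In windows of 200000 bases with at least 10 tested genes the median share of set-apart genes was 4.76%, and the highest were 5 of 11 genes (45.5%) and 6 of 18 (33.3%), both on 3L.

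**Figure D1:**
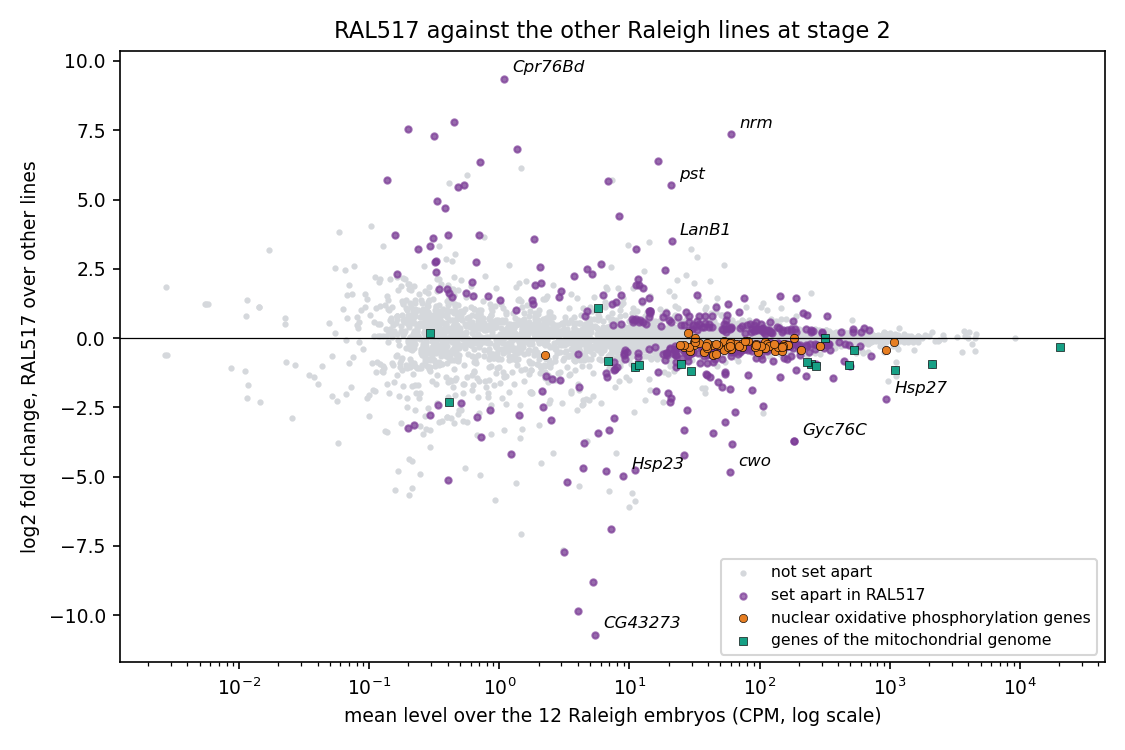
Log2 fold change of RAL517 over the other Raleigh lines (vertical axis) against the mean level over the 12 stage 2 embryos in CPM (horizontal axis, log scale), with 1 point for each of 7566 genes. The 61 nuclear genes of oxidative phosphorylation (orange) sit in a narrow band just below 0, with a median of -0.27, while single genes such as nrm, Cpr76Bd and CG43273 lie far from 0.

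Among the gene lists examined, that of nuclear genes of oxidative phosphorylation had the largest share of called genes. Cells make most of their ATP with the respiratory chain of the inner mitochondrial membrane: complexes I to IV pass electrons to oxygen and pump protons, and complex V, the ATP synthase, uses the proton gradient. Most subunits are encoded in the nucleus and 13 proteins in the mitochondrial genome, and the early fly embryo relies on the mitochondria and transcripts it receives from its mother. In RAL517, 35 of the 61 nuclear genes tested were called lower and 0 higher (57.4% called lower, beside 4.96% of all genes tested), and 33 of the 35 were set apart. The log2 fold change was below 0 for 58 of the 61, with a median of -0.27 beside -0.0013 over all genes tested.

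The shift was small for each gene and was seen in most complexes. Complex I, the NADH dehydrogenase, had 14 of 32 tested genes lower with a median log2 fold change of -0.26. Complex III had 3 of 6 lower with a median of -0.28, complex IV, the cytochrome c oxidase, 7 of 8 with a median of -0.32, and complex V 10 of 11 with a median of -0.36. Complex II, the succinate dehydrogenase, which has no subunit encoded in the mitochondrial genome, had 1 of 4 lower, SdhB, with a median of -0.09.

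Summed over its 61 genes, the nuclear group stood at 5773, 5955 and 6082 CPM in the 3 RAL517 embryos, against 6901, 7117 and 8050 CPM (lowest, median and highest) in the 9 others. The 2 ranges did not overlap. The mean was 5937 ± 155 CPM in RAL517 (SD, n = 3) and 7216 ± 212 CPM in the other lines (SD of the 3 line means), a ratio of 0.823. The sums of complexes I, III, IV and V were each lower in all 3 RAL517 embryos than in any other embryo, with ratios of 0.832, 0.819, 0.804 and 0.809. That of complex II overlapped (334.9 to 344.2 CPM in RAL517 and 276.9 to 408.6 CPM in the others). The overlap came from RAL357 replicates a and b, at 276.9 and 287.9 CPM, and the remaining embryos lay above RAL517. On the scale of all stage 2 embryos the nuclear sum of RAL517 was 5933 CPM, and those of the Zambia lines ZI050, ZI094, ZI160 and ZI470 were 7090, 7353, 6825 and 7492 CPM, so RAL517 had the lowest sum of the 8 lines.

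**Figure D2:**
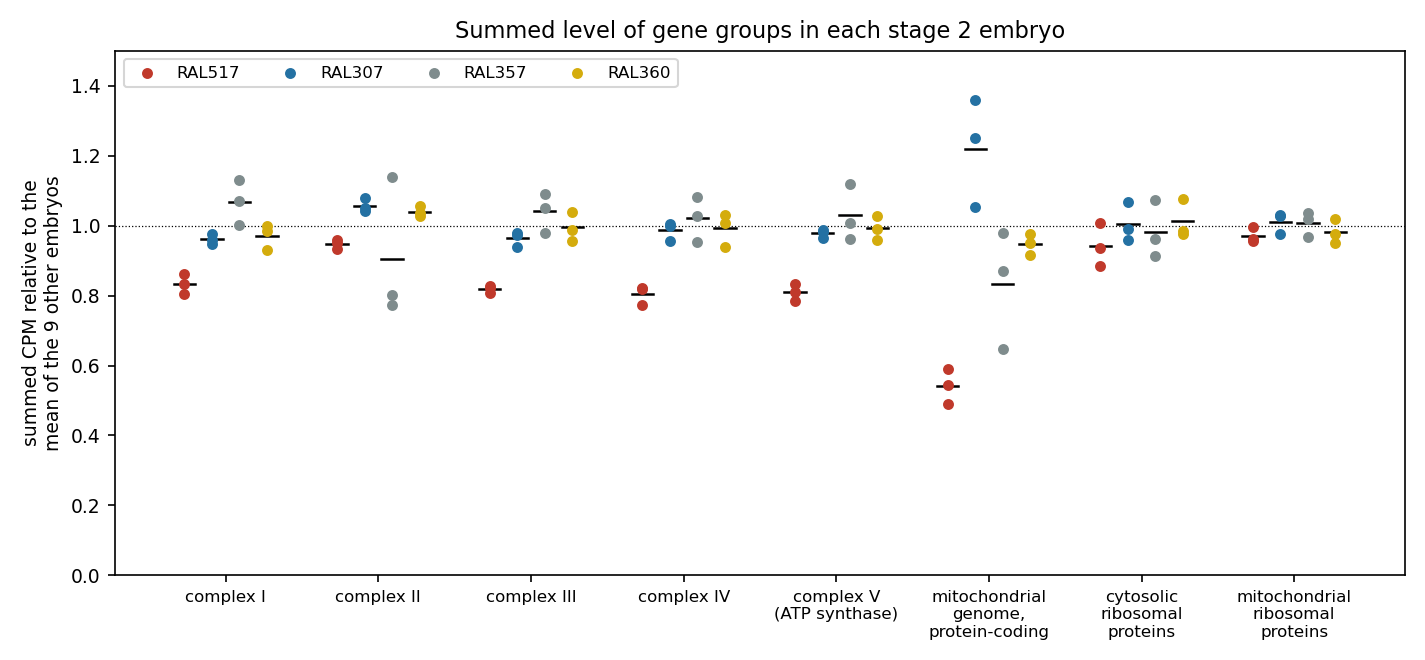
Summed CPM of gene groups in each stage 2 embryo, divided by the mean of the 9 embryos of RAL307, RAL357 and RAL360 (vertical axis, from 0), with 1 point per embryo and a bar for the mean of each line. RAL517 lies below every other embryo for complexes I, III, IV and V and for the protein-coding genes of the mitochondrial genome, while for complex II and both groups of ribosomal proteins its embryos overlap the others.

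COX8, a small subunit of cytochrome c oxidase, measured 32.3, 34.0 and 36.7 CPM in RAL517, against 44.3, 50.1 and 58.1 CPM (lowest, median, highest) in the others. Its log2 fold change was -0.56 (SE 0.0613, adjusted p = 0.000111, edgeR). All 3 RAL517 embryos lay below the others, and the gene was also lower against each line alone. ATPsynbeta, the catalytic subunit of the ATP synthase, measured 704.6, 720.1 and 780.7 CPM in RAL517 and 943.7, 968.6 and 1148 CPM in the others, with a log2 fold change of -0.44 (SE 0.0563, adjusted p = 0.000325). ND-ASHI of complex I measured 27.3, 28.8 and 30.5 CPM in RAL517 and 36.2, 39.9 and 45.3 CPM in the others, with -0.49 (SE 0.0556, adjusted p = 0.000149). ND-39 and ND-15 had log2 fold changes of -0.51 and -0.62, both set apart, but the annotated span of ND-15 holds many other genes, so its counts are less certain. For each of these genes the RAL517 embryos and the others formed separate ranges, with the highest value in RAL357 replicate c.

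The 13 proteins of the mitochondrial genome went further in the same direction. Their summed level was 3303, 2979 and 3587 CPM in RAL517, against 3935, 5935 and 8262 CPM in the others, a ratio of 0.541. The other lines themselves differed here, with means of 7423 CPM in RAL307, 5061 CPM in RAL357 and 5762 CPM in RAL360. Of the 17 mitochondrial genes tested, RNAs included, 6 were called lower (35.3%) and 0 higher, with a median log2 fold change of -0.94. mt:CoIII, a core subunit of cytochrome c oxidase, measured 553.9, 503.3 and 651.2 CPM in RAL517 and 917.5, 1214 and 1659 CPM in the others (log2 fold change -1.15, SE 0.115, adjusted p = 5.33e-05). mt:CoI and mt:CoII were likewise set apart, with -0.94 and -0.96, while mt:ATPase6 was not called and its groups overlapped, with means of 308 CPM in RAL517 and 321 CPM in the others. Among the Zambia lines the sum of the 13 was 2217 CPM in ZI094 and 3304 CPM in ZI160, so unlike the nuclear sum it was not lowest in RAL517 (3289 CPM) among the 8 lines. Without RAL517 replicate 1, 2 of the 17 mitochondrial genes were called lower, and without replicate 3 it was 9.

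The count of nuclear genes called depended on which embryos entered the test. Without RAL517 replicate 1, 9 of the 61 were called lower (14.8%, beside 2.02% of all genes), without replicate 2 it was 11 (18%, beside 2.15%) and without replicate 3 it was 23 (37.7%, beside 3.04%). In each of these fits at least 58 of the 61 fold changes stayed below 0, with medians between -0.29 and -0.25. Leaving out RAL360 replicate 2 or 3 or RAL357 replicate a or c gave 17, 18, 22 and 23 called lower, the last also with 1 called higher. The genes are short, with a median exon length of 888 bases. Among genes of 700 to 1000 bases, 14 of 29 respiratory genes were called lower. The other genes of that length had 3.05% called lower and a median log2 fold change of -0.0082. Among genes of 1000 to 2000 bases, 14 of 18 respiratory genes and 4.62% of the others were called lower. The part of exon length in the shift was not tested.

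Over all genes tested 8.8% were called, 4.96% as lower. In other groups of household genes the share called was near or below 8.8%. Of 84 cytosolic ribosomal protein genes tested 1 was called, RpS5b, a form enriched in the ovary, at -0.54, and their sum of 51946 to 59128 CPM in RAL517 overlapped the 53596 to 63058 CPM of the others. The 71 mitochondrial ribosomal protein genes had 4 called lower (5.63%) and 0 higher, with a median log2 fold change of -0.05. The 4 were mRpL2, mRpS6, mRpL10 and mRpL4. The 34 proteasome genes had 0 called with a median of -0.06. Fold changes were below 0 for 67 of 84 cytosolic and 47 of 71 mitochondrial ribosomal genes and 30 of 34 proteasome genes. Among all 7566 genes tested the number was 3812, so a lean below 0 was not confined to the respiratory genes. No cyclin or cell cycle switch was called among 26, and 1 of 24 DNA replication genes was (4.17%), Psf1 at -0.58. Of 44 translation factors 1 was called (2.27%), eIF3a at -0.28. Of 33 tRNA synthetases 3 were called (9.09%), all lower: AsnRS, GluRS-m and AlaRS-m.

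**Figure D3:**
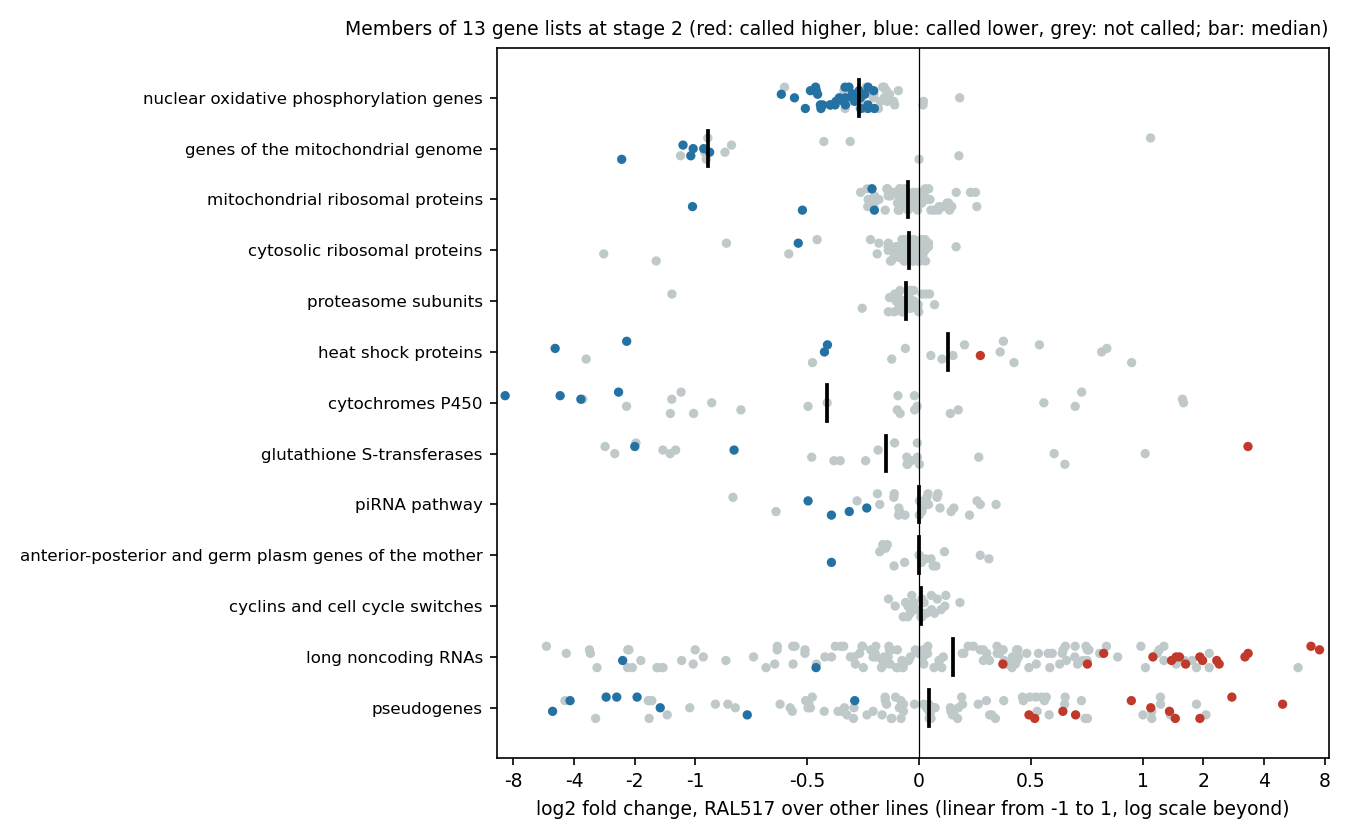
Log2 fold change of RAL517 over the other Raleigh lines for each tested member of 13 gene lists (horizontal axis, linear between -1 and 1 and logarithmic beyond), with called genes in red (higher) or blue (lower), the rest in grey and a bar at the median. The nuclear genes of oxidative phosphorylation and the genes of the mitochondrial genome, RNA genes included, lie almost all left of 0 (medians -0.27 and -0.94). Cyclins and axis genes centre on 0.

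The lists of genes that pattern or activate the egg were small and had 0 or 1 call each, beside 8.8% of all genes called. Lists of this size cannot show whether such genes were called less often than others. Among 18 tested genes of the anterior-posterior axis and germ plasm, such as bcd and osk, 1 was called (5.56%). That gene, aub, encodes a Piwi protein that binds piRNAs against transposons, and measured 120 to 133 CPM in RAL517 and 77.2 to 391.6 CPM in the others. Its log2 fold change was -0.39, and 0.21 without RAL307, where it was highest, so the call depended on that line. None of the 10 dorsal and Toll genes and none of the 12 terminal genes was called. Of 19 genes of egg activation and clearance of maternal RNA 1 was called (5.26%). It was sra, a calcineurin regulator needed to activate the egg, at -0.19 (adjusted p = 0.00716). In the piRNA pathway 4 of 32 genes were lower (12.5%, beside 4.96% of all genes) and 0 higher, with a median of 0.0012, and only AGO3 and spn-E were set apart. AGO3, the partner of aub in the piRNA cycle, was the clearest of them, with 196, 180 and 173 CPM in RAL517 and 223, 257 and 295 CPM in the others (log2 fold change -0.50, SE 0.0446, adjusted p = 2.19e-05). SoYb and spn-E were lower at -0.31 and -0.23.

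Against this background some single genes differed by far more, in either direction. The 10 higher and the 10 lower genes with the largest ratios were taken by rule, and 16 of these 20 were called in the same direction against each of the 3 lines.

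**Figure D4:**
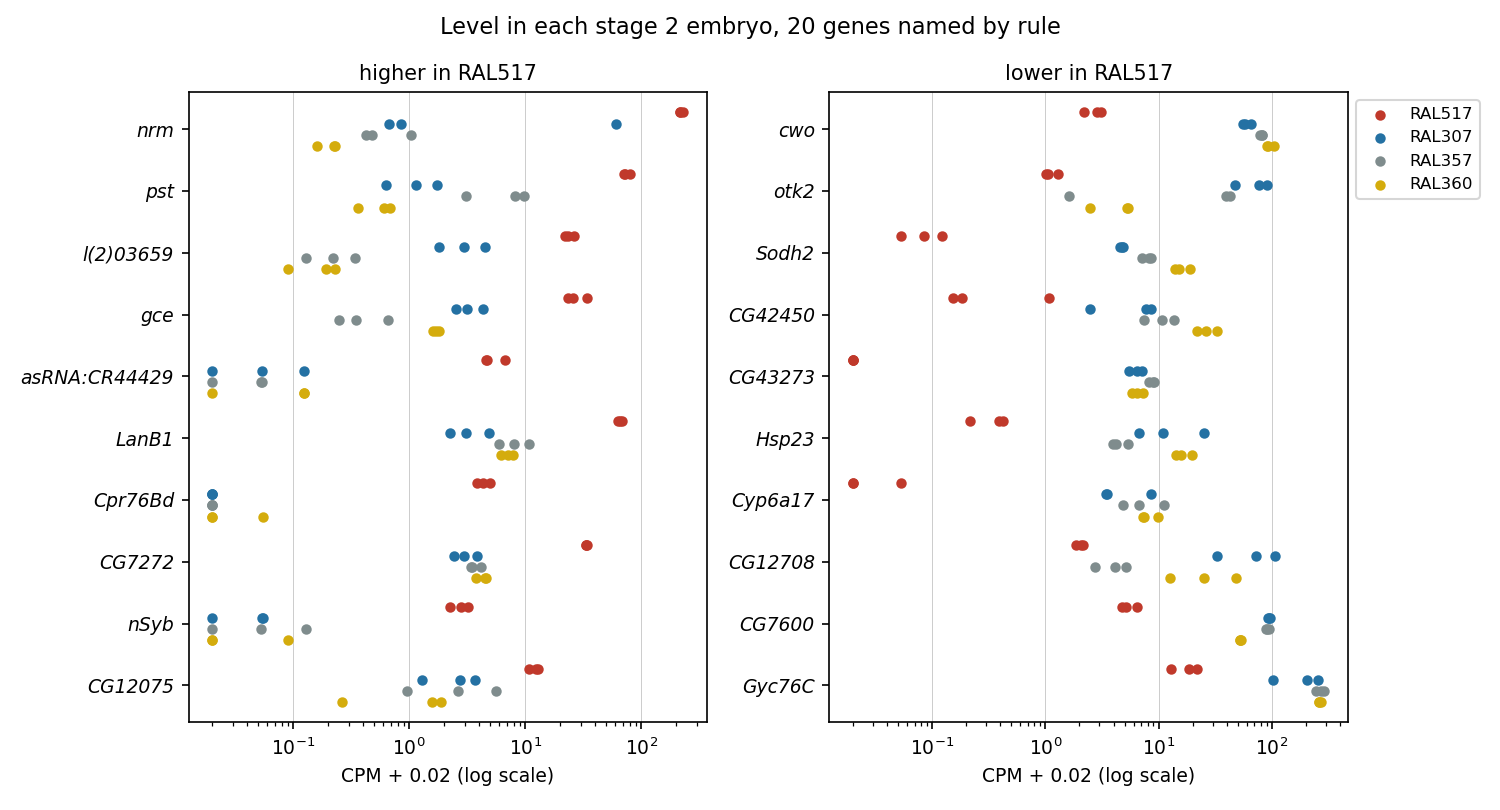
Level of 20 genes in each of the 12 stage 2 embryos (horizontal axis, CPM plus 0.02 on a log scale), with 1 row of 3 points per line and RAL517 (red) on top, for the 10 higher genes (left) and the 10 lower genes (right). RAL517 embryos lie apart from all others in every row, while nrm in RAL307 and otk2 in RAL357 each have an embryo that departs from its own line (60.0 and 1.60 CPM).

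Among the higher genes, nrm encodes neuromusculin, an adhesion molecule of the immunoglobulin family, and measured 214, 216 and 231 CPM in RAL517, against 0.139, 0.453 and 60.0 CPM in the others. Its mean was 31.05-fold higher, with a log2 fold change of 7.37 (SE 0.945, adjusted p = 0.000331). The 60.0 CPM came from RAL307 replicate 1 alone, its line mates had 0.831 and 0.649 CPM, and against RAL307 by itself nrm was not called (adjusted p = 0.0508). LanB1, the laminin beta chain of basement membranes, measured 67.9, 63.6 and 65.2 CPM in RAL517 and 2.22, 6.20 and 10.8 CPM in the others (log2 fold change 3.49, SE 0.176, adjusted p = 1.38e-07). Nrg, neuroglian, another adhesion molecule, measured 143, 144 and 145 CPM in RAL517 and 40.9, 53.3 and 64.8 CPM in the others (log2 fold change 1.44, SE 0.0829, adjusted p = 4.39e-07). LanB1 and Nrg were higher than in every other embryo and than in the Zambia lines, whose means reached 14.9 and 73.3 CPM.

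pst, pastrel, which takes part in resistance to Drosophila C virus, measured 70.7, 79.9 and 72.6 CPM in RAL517 and 0.344, 1.12 and 9.83 CPM in the others, a mean 25.6-fold higher with a log2 fold change of 5.51 (SE 0.279, adjusted p = 1.38e-07). The nearest line was RAL357, 10.6-fold below. Outside Raleigh the level of pst was wide, with Zambia line means of 0.232 to 59.3 CPM. The ABC transporter gene FBgn0010549 measured 26.4, 23.5 and 22.0 CPM in RAL517 and 0.0697, 0.208 and 4.51 CPM in the others (log2 fold change 5.67, SE 0.256, adjusted p = 5.45e-08). gce, a receptor of juvenile hormone, measured 25.6, 23.4 and 34.2 CPM in RAL517 and 0.227, 1.68 and 4.27 CPM in the others (log2 fold change 4.41, SE 0.195, adjusted p = 5.45e-08). The noncoding gene asRNA:CR44429 overlaps gce on the opposite strand and was also higher, with 4.53, 4.66 and 6.73 CPM in RAL517 and at most 0.104 CPM in the others. The pair shares 452 bases, while gce has 5809 exonic bases and asRNA:CR44429 has 802. The strand setting of the counting is not stated, so reads from the shared bases cannot be told apart.

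Other higher genes were near 0 in the 3 lines. Cpr76Bd, a cuticle protein gene, measured 4.97, 4.26 and 3.83 CPM in RAL517, while the 9 other embryos held 1 count between them, a ratio of 1135 with a 95% counting interval of 204 to 44817. In the Zambia lines it was at 0. nSyb, the synaptobrevin of nerve terminals, measured 3.21, 2.75 and 2.23 CPM in RAL517 and at most 0.109 CPM in the others (log2 fold change 6.35, SE 0.494, adjusted p = 5.43e-06). The noncoding gene lncRNA:CR43356 had 1.08, 0.525 and 0.766 CPM in RAL517 and no count in the others, at least 68.7-fold higher against a floor of 3 counts over the 9 embryos. CG7272, a gene without a name, was steady at 33.3, 33.7 and 33.6 CPM in RAL517 and 2.39, 3.75 and 4.61 CPM in the others (log2 fold change 3.21, SE 0.114, adjusted p = 1.08e-08). CG12075 was set apart as well, with 10.7 to 12.8 CPM in RAL517 and 0.244 to 5.55 CPM in the others, but was not called against each line. These floors and intervals cover counting error only.

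Among abundant genes, Naglu, a lysosomal enzyme that trims heparan sulfate, measured 274, 277 and 286 CPM in RAL517 and 77.9, 88.9 and 172 CPM in the others (log2 fold change 1.54, SE 0.172, adjusted p = 0.000125). RAL307 replicate 3 gave the 172 CPM and RAL307 replicate 1 the 77.9 CPM, so that line spanned the whole range of the 9 embryos. lncRNA:CR34335 measured 276, 295 and 490 CPM in RAL517 and 58.2, 140 and 199.9 CPM in the others (log2 fold change 1.46, SE 0.18, adjusted p = 0.000253). It overlaps DIP-alpha on the same strand, which was called lower (1.07 CPM on average in RAL517 and 7.67 CPM in the others) with embryos that overlapped those of RAL307. lncRNA:CR42862 had a log2 fold change of 1.12 and overlaps CG33229 on the same strand over 1500 bases.

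Among the lower genes, cwo encodes clockwork orange, a repressor in the circadian clock, and measured 3.07, 2.82 and 2.17 CPM in RAL517, against 55.5, 81.1 and 103.7 CPM in the others. The RAL517 mean was 29.2-fold lower, with a log2 fold change of -4.84 (SE 0.112, adjusted p = 3.41e-10), and the Zambia lines were at 62.6 to 72.4 CPM, so RAL517 lay far below all 7 other lines. CG7600, a gene without a name, showed the same pattern with 4.73, 5.08 and 6.396 CPM in RAL517 and 52.0, 91.4 and 95.5 CPM in the others (log2 fold change -3.83, SE 0.0854, adjusted p = 3.41e-10). The Zambia means of CG7600 were 87.4 to 94.0 CPM. CG43273 had no count in any RAL517 embryo and 5.50, 7.10 and 9.10 CPM in the others, at least 216-fold lower against a floor of 3 counts over the 3 embryos, while the Zambia lines had 6.23 to 7.39 CPM. CG6044 also had no count in RAL517 and 0.326, 5.61 and 10.6 CPM in the others, at least 160-fold lower. Its Zambia line means were at most 0.0234 CPM, so for this gene near absence was not particular to RAL517.

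Sodh2, a sorbitol dehydrogenase, measured 0.101, 0.0656 and 0.0333 CPM in RAL517 and 4.54, 8.19 and 19.0 CPM in the others (log2 fold change -6.89, SE 0.25, adjusted p = 1.08e-08). Zambia line means of Sodh2 ran from 0.0495 CPM in ZI160 to 27.7 CPM in ZI050, so ZI160 was as low as RAL517. Cyp6a17, a cytochrome P450 known for its part in temperature preference, had 1 count in the 3 RAL517 embryos and 3.43, 7.21 and 11.1 CPM in the others, a ratio of 625 with a counting interval of 112 to 24699. Of 27 cytochrome P450 genes tested, 4 were called lower (14.8%, beside 4.96% of all genes) and 0 higher, with a median log2 fold change of -0.41. Only Cyp6a17 and Cyp12d1-d were set apart. Cyp12d1-d and Cyp12d1-p, near-identical copies whose reads the counting may split, were at 0.0984 to 0.101 and 0.0984 to 0.366 CPM in RAL517, against line means of 14.7 and 14.97 CPM in RAL307, where they were highest. Cyp6a13 was highest in RAL307 as well, and its RAL517 and RAL357 embryos overlapped. Of 26 glutathione S-transferases, detoxifying enzymes, GstT2 and GstE11 were lower and GstO3 higher (11.5% called, beside 8.8% of all genes). Only GstT2 was set apart, and GstO3 reached at most 1.05 CPM in RAL517. GstT2 measured 5.94, 5.48 and 5.86 CPM in RAL517 and 9.20, 28.5 and 38.7 CPM in the others (log2 fold change -1.998, SE 0.203, adjusted p = 6.06e-05). It overlaps CG12926 on the opposite strand, which was called higher with a log2 fold change of 5.52, so the counts of both are less certain. Fdh, the formaldehyde dehydrogenase, measured 98.3, 103 and 113 CPM in RAL517 and 238, 261 and 296 CPM in the others (log2 fold change -1.36, SE 0.0506, adjusted p = 1.46e-08).

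Heat shock proteins are chaperones that hold or refold damaged proteins, and the small ones are deposited by the mother. Of 20 tested genes 4 were called lower and 1 higher (25.0%, beside 8.8% of all genes), with a median log2 fold change of 0.13. Hsp27 measured 305, 294 and 163 CPM in RAL517 and 984.9, 1069 and 1738 CPM in the others (log2 fold change -2.19, SE 0.196, adjusted p = 2.13e-05). Hsp23, its neighbour on arm 3L, measured 0.372, 0.197 and 0.400 CPM in RAL517 and 3.95, 10.9 and 25.3 CPM in the others (log2 fold change -4.97, SE 0.488, adjusted p = 4.50e-05). Both were below all other embryos and below the Zambia lines, with means of at least 987 and 17.4 CPM. Hsp26, from the same cluster, moved less and its embryos overlapped, with 803 to 991 CPM in RAL517 and 926 to 1630 CPM in the others (log2 fold change -0.41, adjusted p = 0.00935). Hsc70-5, the mitochondrial Hsp70, was lower at -0.42 (SE 0.0382, adjusted p = 2.21e-05), and Hsp110, a partner of Hsp70, was higher at 0.27 (SE 0.0406, adjusted p = 0.000913). The heat-inducible Hsp70 genes were not called.

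otk2, a receptor-like gene that works with Wnt signals, was 31.5-fold lower in the mean, but embryos of another line varied widely. It measured 1.28, 0.984 and 1.03 CPM in RAL517 and 1.60, 39.6 and 89.9 CPM in the others, where RAL357 replicate c had 1.60 CPM beside 39.6 and 43.1 CPM in its line mates. RAL360 was low too, at 2.44 to 5.33 CPM, and against RAL360 alone otk2 was not called (adjusted p = 0.193). CG12708 was likewise not called against each line, with 1.84 to 2.13 CPM in RAL517, 2.72 to 107 CPM in the others and an adjusted p of 0.26 against RAL357, the nearest line. Zambia line means of CG12708 were 0.0232 to 5.74 CPM, a range that held the RAL517 level. CG42450 measured 1.05, 0.164 and 0.133 CPM in RAL517 and 2.46, 10.6 and 32.8 CPM in the others (log2 fold change -4.75, SE 0.616, adjusted p = 0.000351).

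Gyc76C, a receptor that makes cyclic GMP, measured 18.6, 22.0 and 12.8 CPM in RAL517 and 102, 258 and 290 CPM in the others (log2 fold change -3.73, SE 0.279, adjusted p = 5.43e-06). It shares 42627 bases on the same strand with CG42637, whose values were almost the same (18.6, 22.0 and 12.8 CPM in RAL517), so it cannot be said which of the 2 genes the reads came from. Gp210, a glycoprotein of the nuclear pore, measured 163, 155 and 162 CPM in RAL517 and 345, 445 and 490 CPM in the others (log2 fold change -1.43, SE 0.0759, adjusted p = 2.14e-07). Eps-15, an endocytosis adaptor, was lower at -1.15 (SE 0.0506, adjusted p = 5.45e-08). In the Zambia lines Gp210 was at 433 to 477 CPM and Eps-15 at 217 to 233 CPM, so both were lowest in RAL517 among the 8 lines.

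Among long noncoding RNAs more were called higher than lower. Of 154 long noncoding RNAs tested 16 were higher and 2 lower (11.7%, beside 8.8% of all genes), with a median log2 fold change of 0.15. Some of the higher ones, such as lncRNA:CR43356 and asRNA:CR44429, were near 0 in all other lines and passed the filter only through RAL517. Their Zambia line means were at most 0.0124 and 0.0349 CPM. For such genes the filter fixed the direction, so the surplus of higher calls follows in part from it. How many entered this way was not counted. Of 106 pseudogenes 11 were higher and 8 lower (17.9%), with a median of 0.05, and counts of pseudogenes may hold reads of their parent genes. Only 3 pseudogenes were set apart as higher and 6 as lower, so the surplus of higher calls came from genes whose embryos overlapped. CR41379 measured 1.49, 1.38 and 0.733 CPM in RAL517 and at most 0.129 CPM in the others. Protein-coding genes known only by a CG number had 101 higher and 97 lower of 2200 tested (9.0%). Of 8 immune genes tested 1 was called, Tep4, an opsonin-like protein, at -1.90, and of 10 chemosensory genes, 10 tubulins and actins and 1 serine protease none was. Among 29 histones His1:CG33834 was called at -0.54, with a list median of -0.33. Ugt36D1 was the only called member of 8 UDP-glycosyltransferases, at 1.78 (adjusted p = 0.00969).

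The Zambia lines took no part in the test, and their levels were set beside those of RAL517. The RAL517 mean lay within the range of the 4 Zambia line means for 57.7% of all tested genes, for 26.3% of those set apart as higher and for 27.4% of those set apart as lower. Lower shares among set-apart genes follow in part from their choice, since RAL517 lay beyond all other Raleigh embryos in each. The shares are therefore no measure of how particular RAL517 was. Set-apart genes outside the Zambia range included cwo, CG7600, CG43273, Cpr76Bd, LanB1 and Gp210, whose RAL517 level was outside that of all 7 other lines.

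The stage 5 embryos of the same lines were other individuals and were tested separately. By then the embryo transcribes its own genome and much of the maternal RNA is gone. Of the 175 genes set apart as higher at stage 2, 170 were tested at stage 5, where 42 were called higher (24.7%, beside 3.97% of all 10000 genes tested, of which 7.25% were called in either direction) and 1 was called lower. Of the 281 set apart as lower, 53 were called lower (18.9%, beside 3.28%) and 7 higher. The sign was kept at 131 of the 170 and at 200 of the 281. RAL360 replicate 3 of stage 5 has a total of only 340746 counts, and without it 40 and 51 genes were called in the same direction.

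**Figure D5:**
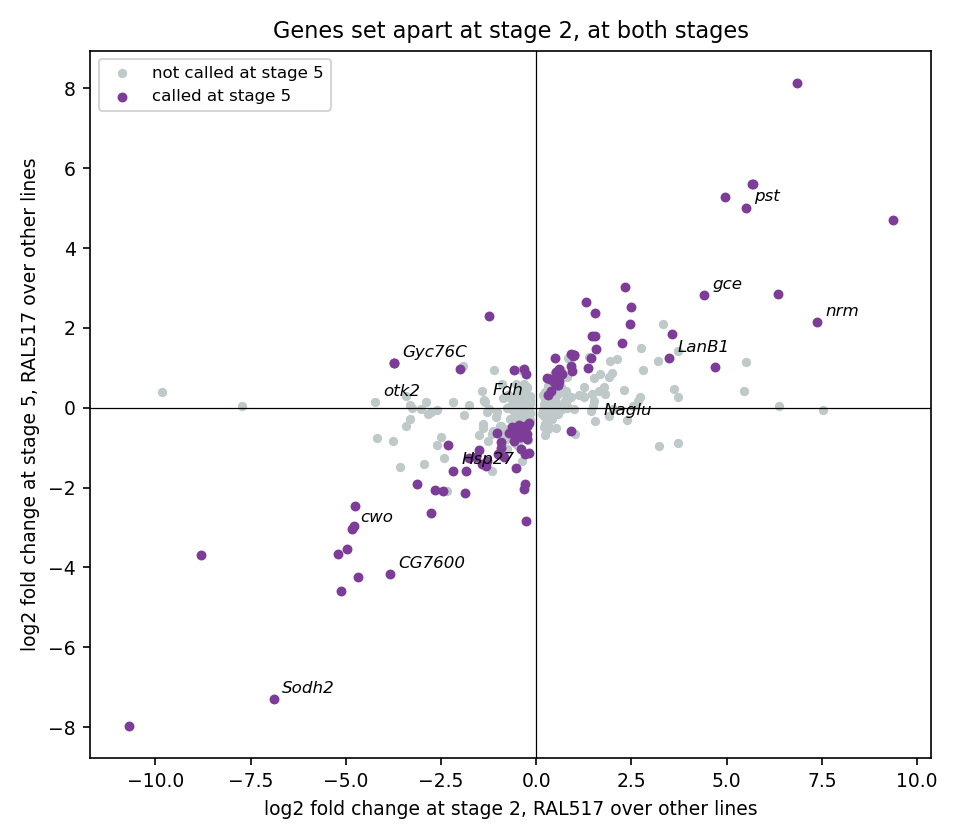
Log2 fold change of RAL517 over the other Raleigh lines at stage 5 (vertical axis) against that at stage 2 (horizontal axis) for the genes set apart at stage 2 and tested at both stages, with genes called at stage 5 in purple. Sodh2, CG7600, cwo and pst lie on the same side at both stages, while Gyc76C, at -3.73 and 1.12, changed side.

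Several of the genes with the largest differences were called again. Sodh2 had at most 0.113 CPM in RAL517 at stage 5 and at least 6.21 CPM in the others (log2 fold change -7.31, adjusted p = 4.31e-09). CG7600 was at 2.18 to 2.84 CPM in RAL517 and 33.0 to 73.3 CPM in the others, and CG43273 at no more than 0.0312 CPM in RAL517 and at least 2.60 CPM in the others. Gp210 was lower at -1.41, FBgn0010549 and pst were higher at 5.602 and 5.01, and Hsp23 was lower at -3.54. nSyb had 18.4, 19.3 and 18.8 CPM in RAL517, against 1.63 to 3.70 CPM in the others. The nuclear genes of oxidative phosphorylation were called lower at 4 and higher at 1 of 61, with 49 of the 61 fold changes below 0 and a median of -0.16 beside 0.018 over all genes at stage 5. The fold change itself differed between the stages at 5.12% of the genes tested at both.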

How the data were processed

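Single embryos of 8 lines were sequenced at 2 stages, with 3 embryos per line and stage. The deposited values are raw counts per gene. According to the study's methods and the submitters' processing notes, the authors used Cutadapt 1.7 for trimming, HISAT2 2.1.0 for alignment against release 6.18 of the FlyBase genome, and featureCounts for counting. The library kit marks strand, but the strand setting of the counting is not given in the sources used here. Near-identical copies and overlapping genes are therefore uncertain, and levels are not compared between genes.

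Columns were mapped to samples by name. The 3 RAL357 columns of a stage share replicate number 1 and were called a, b and c. Symbols, types and exon lengths were taken from a later annotation of the same assembly (BDGP6.54) and matched 17343 of 17481 genes.

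Stage 2 counts were filtered with filterByExpr by line over all 24 stage 2 embryos (minimum count 10, total 15), scaled by TMM and tested with the quasi-likelihood F-test of edgeR 4.0.16 in R 4.3.3, as RAL517 minus the mean of the other line coefficients in a model of the 4 Raleigh lines, with Benjamini-Hochberg adjustment over all genes. DESeq2 was an alternative (version 1.42.0), with the Wald test of the same contrast, whereas the study used the likelihood ratio test of that tool. Sums and descriptions used Python 3.11.15. A standard error was not computed where a line had no counts. The stage difference was tested as an interaction in 1 fit of the 24 Raleigh embryos. Steps were tested on simulated data before use.

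Named genes are the 10 higher and 10 lower set-apart genes with the largest log2 ratio of means (0.5 CPM added to each), the 5 higher and 5 lower most abundant ones at least 2-fold apart, and up to 4 called members per gene list, all with a symbol. Members and lists were chosen with earlier results of these data known. Lists were matched by symbol, are described by counts and medians, and no set test was run. Alternatives were DESeq2, its size factors, 3 other filters, an adjusted p under 0.05, thinned counts, all 24 embryos in 1 fit, the other embryos as 1 group, each other line left out, line sums, a replicate block and each embryo left out. Embryos of a line were checked for duplicated columns and none was found, the lowest chi-squared per degree of freedom being 13.8. No sequence was read, and positions are not given.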

Additional observations from a re-analysis of the deposited data

Results flagged for a closer look

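The effect of RAL517 differed between stage 5 and stage 2 at 503 of 9816 genes tested (5.12%) with edgeR's interaction test at an adjusted p under 0.01. Among the genes named for size or abundance, 11 did so, and each is given as the log2 fold change at stage 5 minus that at stage 2, with its adjusted p.

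At 6 genes that were higher in RAL517 at stage 2 the fold change was smaller or absent at stage 5: nrm by -5.17 (adjusted p = 0.0042), Cpr76Bd by -4.45 (adjusted p = 0.00224), nSyb by -3.41 (adjusted p = 0.00012), LanB1 by -2.21 (adjusted p = 1.33e-05), CG7272 by -1.97 (adjusted p = 0.000107) and Naglu by -1.81 (adjusted p = 0.000137). Naglu had a log2 fold change of -0.33 at stage 5 (adjusted p = 0.239), while nrm was still higher, at 93.2, 87.4 and 86.2 CPM in RAL517 and 5.64 to 31.7 CPM in the others.

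At 5 genes that were lower the change was positive: Gyc76C by 4.89 (adjusted p = 3.15e-10), otk2 by 4.42 (adjusted p = 0.000733), CG12708 by 3.09 (adjusted p = 0.00027), cwo by 1.86 (adjusted p = 0.000181) and Fdh by 1.58 (adjusted p = 3.15e-10). Gyc76C, with the overlapping CG42637, was the strongest case, with 44.2, 34.9 and 41.1 CPM in RAL517 at stage 5 and 5.64 to 26.2 CPM in the others, so it was called in the opposite direction at the later stage (1.12, adjusted p = 0.000419). The lowest of these values came from the shallow library RAL360 replicate 3. Fdh and otk2 were not called at stage 5 (adjusted p = 0.245 and 0.697). Stage 5 embryos were XY and stage 2 embryos of unknown sex, and the part of sex in these differences was not tested.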

How the results depend on the processing

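Called genes numbered 666. They were 1064 with DESeq2's Wald test, 1308 at an adjusted p under 0.05, 430 without RAL360 and 186 with the other embryos as 1 group. That grouping also gave 64 genes set apart as higher and 122 as lower. Called lower there were 13 nuclear genes of oxidative phosphorylation and 3 genes of the mitochondrial genome. Counts summed per line, 1 against 3, gave 0 in all of these (339 genes at an unadjusted p under 0.05, edgeR) and left none of the 72 named genes called. Leaving out single embryos gave 301 to 684 called genes, 109 to 199 set apart as higher and 136 to 296 as lower. For these 3 counts the lowest value was without RAL517 replicate 1 and the highest without RAL307 replicate 1. Nuclear oxidative phosphorylation genes called lower numbered 9 to 32 when single embryos were left out, 17 without RAL357 and 15 without RAL360. Mitochondrial genes numbered 2 to 9 when single embryos were left out, 3 without RAL360, and 11 with DESeq2's Wald test and at an adjusted p under 0.05. Against RAL307, RAL357 and RAL360 singly, the counts were 1071, 1125 and 1038 with DESeq2's Wald test, 1321, 1446 and 1281 at an adjusted p under 0.05, and 262 to 535, 385 to 762 and 369 to 711 without single embryos. At an adjusted p under 0.05 at both stages, 75 higher and 92 lower genes were called in the same direction at stage 5. The fold change of aub reversed to 0.21 without RAL307, and the stage difference of mRpL10, near 0 throughout, to -0.0096 without RAL360 replicate 3 of stage 5. The other named genes kept their sign in all alternatives. Calls lost in over 12 of the alternatives were those of sra, spn-E, Hsp26, mRpL4, mRpL10, His1:CG33834, Cyp6a13, Ugt36D1, mt:ATPase8, mt:ND5 and mt:tRNA:Gly-TCC. With the replicate block 556 genes were called, 150 set apart as higher and 227 as lower. Called lower with it were 25 nuclear genes of oxidative phosphorylation and 5 genes of the mitochondrial genome. Of 9 same-numbered pairs 4 correlated above 0.1, and in 11 of 18 comparisons the closest embryo of another line had the same number. Equal numbers were not treated as pairs in the main fit. Whether they mark a shared effect was not tested beyond the replicate block. The alternatives for the lists beyond DESeq2, its size factors and the looser threshold were chosen after seeing the data. Depth was even at stage 2, where a floor of 3 counts over the 3 RAL517 embryos stood for 0.0333 CPM, and limits only genes near it.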

Other observations

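Enzymes of the tricarboxylic acid cycle, which feed electrons to the respiratory chain, were listed after the values of oxidative phosphorylation were seen, as were those of glycolysis, by name and not by level. Of 13 cycle enzymes tested 6 were called lower in RAL517, beside 4.96% of all genes, and 0 higher (Idh, ScsbetaG, CG7430, Idh3b, Idh3g and Mdh2), and all 13 fold changes were below 0, with a median of -0.21. Of 11 glycolysis enzymes 0 were called, 6 fold changes were below 0 and the median was -0.03. The lists were chosen with the pattern in view, so no test was made of them.

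The gene listed as FBgn0003328, which the annotation used here does not name, was picked out after its values were seen. Its mean was 47.4-fold higher in RAL517. It measured 61.8, 59.2 and 66.9 CPM in RAL517, against 0.0344, 0.712 and 4.85 CPM (lowest, median and highest) in the other Raleigh embryos (log2 fold change 6.38, SE 0.327, adjusted p = 1.48e-07, edgeR). Zambia line means reached 8.96 CPM. At stage 5 the groups overlapped, with 23.5 to 46.2 CPM in RAL517 and 12.4 to 67.4 CPM in the others. kek6, outside the naming rule and also picked out afterwards, had 0.304, 0.361 and 0.267 CPM in RAL517 and 6.76, 8.20 and 10.6 CPM in the others (log2 fold change -4.78, SE 0.186, adjusted p = 1.86e-08).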
